A study of Homo sapiens with 18 samples.

Results

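Cells carrying either of a pair of hairpins against the same mRNA were compared for which mRNAs ribosomes occupied. The comparison sets 3 ribosome footprint libraries of cells carrying the hairpin labelled SH2 against 3 of cells carrying the hairpin labelled SH3, 6 of the 18 libraries of the series. These 6 were taken by their labels, with no measured value used in the choice. Another 3 footprint libraries, of cells carrying a scramble hairpin (SC), are shown for reference and were not part of the contrast. They entered the fit through the filter on low counts, the scaling of libraries and the estimate of the spread. The remaining 9 libraries are RNA-seq of the undigested cytoplasmic RNA of the same lysates, and they give the RNA level of each gene.

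All libraries came from MDA-MB-231, an established human line of triple-negative breast carcinoma, grown with serum, antibiotics and insulin. SH2 and SH3 both target the mRNA of FBL (fibrillarin) and were delivered, like SC, by lentivirus from the pLKO.1 vector. Transduced cells were kept in puromycin at 1 µg/ml for 96 h and then changed to fresh medium, and were treated the next day with cycloheximide at 100 µg/ml for 5 min before lysis. Each group is therefore a pool of transduced cells under selection, all of them carrying a vector and a resistance gene, and the hairpins lower FBL without removing its gene. The labels do not say whether the 3 replicates of a group were separate transductions, so p-values measure the spread between these libraries, which may be technical.

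Fibrillarin is a nucleolar enzyme that methylates the ribose of ribosomal RNA. It works in small nucleolar ribonucleoproteins (snoRNPs) of the box C/D class, whose guide RNAs choose the sites by base pairing. A hairpin expressed from a lentivirus is cut to a short interfering RNA that leads Argonaute proteins to a matching mRNA. It can also lower other mRNAs through partial pairing, which is why a knockdown is commonly run with more than 1 hairpin. In ribosome profiling, RNase digests mRNA that no ribosome covers, and sequencing the fragments left under monosomes counts the ribosomes on each coding sequence. The footprint level of a gene thus follows both the amount of its mRNA and the number of ribosomes on each copy, and fewer expressing cells cannot be told apart from less RNA per cell in these bulk samples.

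The footprint libraries held 1662705 to 2862198 counts in SH3, 2707201 to 4464734 in SH2 and 2486598 to 6098648 in SC. At these totals 3 counts correspond to between 0.492 and 1.8 CPM (counts per 1000000 counts of the library). Levels are given as CPM scaled with the trimmed mean of M-values (TMM), and differences are log2 of SH2 over SH3. Of 5 genes that the line expresses strongly, all were detected, with VIM (vimentin, an intermediate filament of mesenchymal cells) between 5227 and 9063 CPM in the 9 libraries. The sum of these 5, most of it VIM, was 10760 to 11890 CPM in SH2 and 8174 to 9247 CPM in SH3. CD44 (a hyaluronan receptor) and CAV1 (the coat protein of caveolae) were higher in SH2 by 0.71 and 0.97 (edgeR adjusted p 0.0192 and 0.000471). AXL, a receptor tyrosine kinase, lay the other way, at 368, 644 and 541 CPM in SH2 and 923, 771 and 792 CPM in SH3. It did not pass (-0.68, edgeR adjusted p 0.0512), and neither did VIM (0.41, edgeR adjusted p 0.06) or MSN (moesin, 0.29, edgeR adjusted p 0.142). Of the 3 receptor genes that name this tumour type as negative, PGR (progesterone receptor) had no footprint in the 9 libraries and ESR1 (oestrogen receptor) had 0.324 CPM in SH2 replicate 3 and none in the others, whereas ERBB2 was present at 36.5 to 59.1 CPM in the 9. The summed level of 5 fibroblast markers was 38.9 to 86.7 CPM in SH2 and 46.9 to 66.3 CPM in SH3, and that of 4 leukocyte markers was 8.42 to 10.0 CPM and 5.48 to 6.66 CPM. DCN and CD3E, defining genes of fibroblasts and T cells, were at 0 in both hairpins, but other markers were present. COL1A1 stood at 27.8 to 73.7 CPM in SH2 and 38.7 to 54.0 CPM in SH3, PDGFRB at 6.475 to 9.32 and 7.61 to 10.9 CPM. CD14 stood at 7.77 to 9.63 and 5.14 to 6.66 CPM. PTPRC and COL3A1 had traces in every SH2 library (0.233 to 0.6475 CPM) and none in SH3. CD79A had 0.342 CPM in SH3 replicate 2 and none in SH2, and LUM was uneven in both. The part of these markers in other differences was not tested.

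Footprints on FBL itself were low under both hairpins. FBL stood at 5.18, 4.43 and 30.1 CPM in SH2, at 4.098, 5.48 and 8.06 CPM in SH3 and at 279.7, 269 and 296 CPM in SC. Replicate 3 of SH2 was the highest of the 6 hairpin libraries, and the groups overlapped. The difference between the hairpins was 1.08 (SE 0.58, edgeR adjusted p 0.192), which did not pass the test. Without SH2 replicate 3 the difference was -0.35 (edgeR adjusted p 0.466), with the opposite sign. It passed with no filter on low counts (edgeR adjusted p 0.00355) and without SH2 replicate 2 (1.56, edgeR adjusted p 0.0423). The RNA difference of FBL was 0.72 (SE 0.47, edgeR adjusted p 0.242).

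Footprints of 2459 genes differed between the hairpins. They were 23.8% of the 10345 genes with enough footprint counts to test, and they passed an adjusted p of 0.05 in edgeR's quasi-likelihood test, which is what called means here. Of these, 1256 (12.1% of genes tested) were higher in SH2 and 1203 (11.6%) were lower. The median size of the difference was 0.83 log2 units over called genes and 0.34 over all genes tested, and the median signed difference over all genes was 0.00. An absolute difference of at least 1 was reached by 874 called genes and of at least 2 by 73, which were 41 higher and 32 lower in SH2. The 3 SH2 libraries did not overlap the 3 SH3 libraries in 4349 genes (42% of genes tested), among them 2413 of the called genes. The number called was 1541 without SH3 replicate 2, with 779 higher and 762 lower, and 781 were lower without SH2 replicate 2.

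RNA levels differed as well. In the RNA libraries 4993 of 12710 genes tested (39.3%) were called, 2400 higher in SH2 (18.9%) and 2593 lower (20.4%). Of the 2455 genes called in footprints and tested in RNA, 1846 were called in RNA in the same direction, 5 in the opposite direction, and 604 were not called in RNA. Across the 10335 genes tested in both, footprint and RNA differences had a Pearson correlation of 0.8 and a Spearman correlation of 0.738. These are descriptions across genes, which are not independent replicates, of library pairs that share a lysate.

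**Figure D1:**
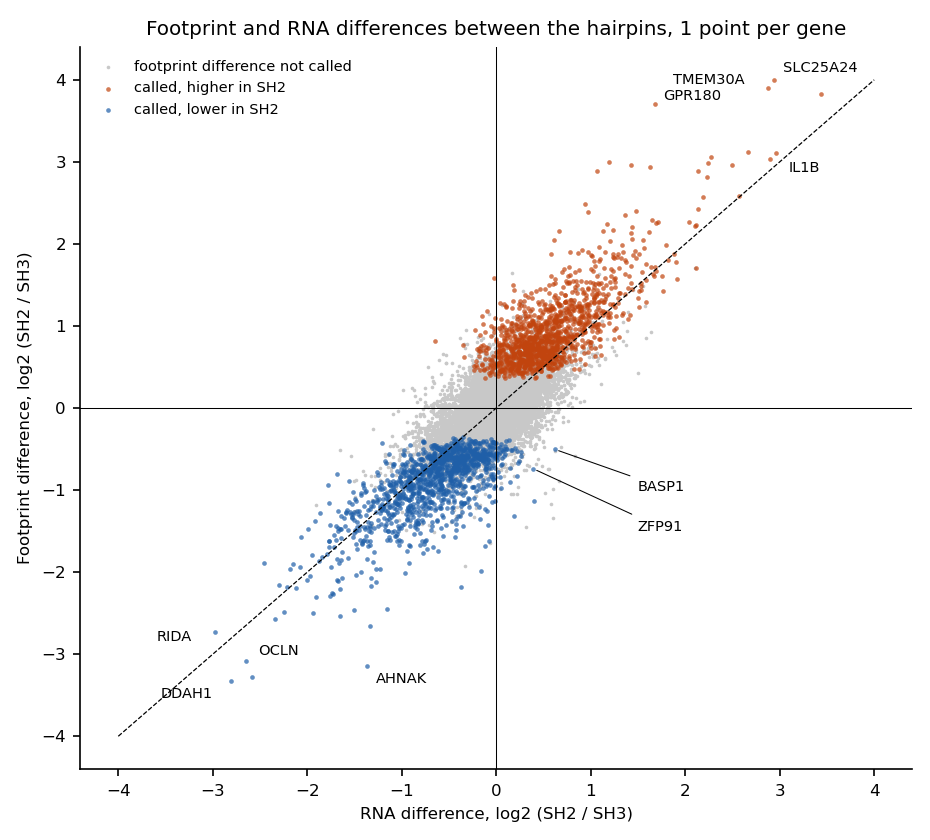
Footprint difference (y axis, log2 of SH2 over SH3) against RNA difference (x axis, same scale) for the 10335 genes tested in both, 1 point per gene, coloured by the footprint call. The dashed line marks equal differences. Most called points lie in the quadrants of shared direction, while BASP1 and ZFP91, the genes called in the test of footprints relative to RNA, lie at lower right.

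The 15 genes with the largest called differences towards SH2 encoded, among others, membrane proteins, an inflammatory cytokine and secreted enzymes. The rule that chose the 15 in each direction required SH2 and SH3 libraries that did not overlap. SLC25A24, a carrier of ATP-magnesium and phosphate in the inner mitochondrial membrane, stood at 250.3, 286 and 239 CPM in SH2 and 16.98, 18.5 and 13.3 CPM in SH3. The groups were far apart, the difference was 3.99 (SE 0.17, edgeR adjusted p 3.3e-10), and the SC libraries, at 214, 214 and 208 CPM, were near SH2. TMEM30A, the subunit that phospholipid flippases need to leave the endoplasmic reticulum, stood at 259, 325 and 264 CPM in SH2 and 20.5, 19.9 and 16.8 CPM in SH3, a difference of 3.90 (SE 0.17, edgeR adjusted p 3.3e-10). Here too SC was near SH2, at 158, 176 and 170.4 CPM, so that SH3 was the group that stood apart for both genes. The RNA differences of these genes were 2.94 and 2.88.

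In other genes of the same rank SH2 was the group that stood apart from SC. PRSS2, an anionic trypsinogen, stood at 506, 313 and 454 CPM in SH2 and 26.9, 31.2 and 30.9 CPM in SH3, a difference of 3.83 (SE 0.22, edgeR adjusted p 2.38e-08). Its SC libraries held 15.3, 24.01 and 13.7 CPM, below both hairpins, and its reads may be shared with other trypsinogen genes of near-identical sequence. SLITRK6, a membrane protein of the family that shapes neurites and synapses, stood at 60.7, 50.6 and 45.3 CPM in SH2 and 10.5, 11.6 and 7.01 CPM in SH3 and at 4.87, 3.37 and 1.598 CPM in SC. SPINK4, a Kazal-type inhibitor of serine proteases, stood at 24.8, 18.6 and 17.8 CPM in SH2 and 4.098, 1.71 and 2.45 CPM in SH3. The differences of SLITRK6 and SPINK4 were 2.43 and 2.96. TFF2, a trefoil peptide of mucus-secreting epithelium, was uneven within SH2, at 45.5, 9.09 and 29.5 CPM in SH2 and 2.93, 5.14 and 3.15 CPM in SH3. Its difference was 2.81 (SE 0.61, edgeR adjusted p 0.00361).

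A cytokine and its co-receptor were both among these 15. IL1B, the cytokine interleukin-1 beta, stood at 80.7, 67.1 and 56.01 CPM in SH2 and 10.5, 6.505 and 7.36 CPM in SH3, a difference of 3.10 (SE 0.26, edgeR adjusted p 1.59e-06). IL1RAP, the co-receptor that its receptor needs to signal, stood at 35.2, 49.4 and 33.99 CPM in SH2 and 5.85, 8.22 and 5.61 CPM in SH3, a difference of 2.58 (SE 0.26, edgeR adjusted p 6.74e-06). The SC libraries lay between the hairpins, at 21.1, 24.9 and 14.02 CPM for IL1B and 17.7, 26.1 and 19.5 CPM for IL1RAP. TNFRSF11B (osteoprotegerin, a decoy receptor that binds RANKL) stood at 17.03, 29.4 and 27.2 CPM in SH2 and 3.51, 2.05 and 3.15 CPM in SH3, and INHBA, the beta-A chain of activin, at 37.4, 76.2 and 24.3 CPM in SH2 and 12.9, 7.19 and 9.46 CPM in SH3. Their differences were 3.12 and 2.29. INHBA was highest in SH2 replicate 2, and without that library its difference was 1.69. The remaining genes of the 15 were GPR180, a membrane protein, at 17.8, 28.7 and 21.7 CPM in SH2 and 0.585, 1.37 and 2.81 CPM in SH3 (3.71, SE 0.37, edgeR adjusted p 6.37e-06; 4.37 without SH3 replicate 3), MPP4, a scaffold of the retina (2.58), SLC46A3, a lysosomal transporter (2.39), INSIG1 and MMP1, which are described with their groups. In SH3 GPR180 was near the level of 3 counts, which is 1.8, 1.05 and 1.09 CPM in these libraries, so the size of its difference is uncertain.

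The 15 genes with the largest called differences towards SH3 encoded, among others, metabolic enzymes, regulators of mRNA and a tight junction protein. DDAH1, which breaks down methylated arginines that inhibit nitric oxide synthases, stood at 8.89, 6.76 and 12.3 CPM in SH2 and 114, 79.4 and 85.5 CPM in SH3, a difference of -3.33 (SE 0.21, edgeR adjusted p 8.25e-08). OCLN (occludin, a strand protein of tight junctions) stood at 5.55, 6.29 and 3.88 CPM in SH2 and 56.8, 45.5 and 35.8 CPM in SH3, a difference of -3.09 (SE 0.26, edgeR adjusted p 1.59e-06). In both genes SC, at 159.9, 149 and 147 CPM and 46.8, 50.98 and 36.6 CPM, was near SH3. AHNAK, a giant scaffold protein under the plasma membrane, stood at 139, 31.2 and 72.2 CPM in SH2 and 729, 809 and 578 CPM in SH3, a difference of -3.15 (SE 0.37, edgeR adjusted p 2.9e-05). Its SH2 libraries spread widely, and without SH2 replicate 1 the difference was -3.78. Its RNA difference was -1.37, smaller than in footprints, but the test of footprints relative to RNA did not pass (edgeR adjusted p 0.0955).

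Several of the 15 act on mRNA. PAIP2, which binds the poly(A)-binding protein and restrains translation, stood at 38.9, 53.1 and 49.9 CPM in SH2 and 347, 254 and 246 CPM in SH3, a difference of -2.57 (SE 0.18, edgeR adjusted p 2.73e-07). CMTR2, a methyltransferase of the mRNA cap, stood at 5.18, 3.497 and 3.88 CPM in SH2 and 18.7, 22.6 and 19.3 CPM in SH3, and PNRC2, a cofactor of decapping, at 14.8, 10.02 and 9.06 CPM in SH2 and 57.4, 62.7 and 43.8 CPM in SH3. Their differences were -2.30 and -2.29, and WBP4, a spliceosomal protein, had a difference of -2.21. TMED10, a cargo receptor between the endoplasmic reticulum and the Golgi apparatus, was even within each hairpin, at 51.1, 48.02 and 48.2 CPM in SH2 and 238, 214 and 224 CPM in SH3, a difference of -2.20 (SE 0.14, edgeR adjusted p 6.21e-08). RIDA, which clears reactive enamines and imines (-2.73), CC2D1A, a regulator of endosomal sorting and transcription (-2.49), SP140, a nuclear body protein of immune cells (-2.48; -3.16 without SH2 replicate 2), SNRK, a kinase of the AMPK family (-2.17), MARCKSL1, an actin-binding substrate of protein kinase C (-2.11; -2.77 without SH2 replicate 1), DIPK1A (-2.18) and NACC2, a transcriptional repressor (-2.10), completed the 15.

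**Figure D2:**
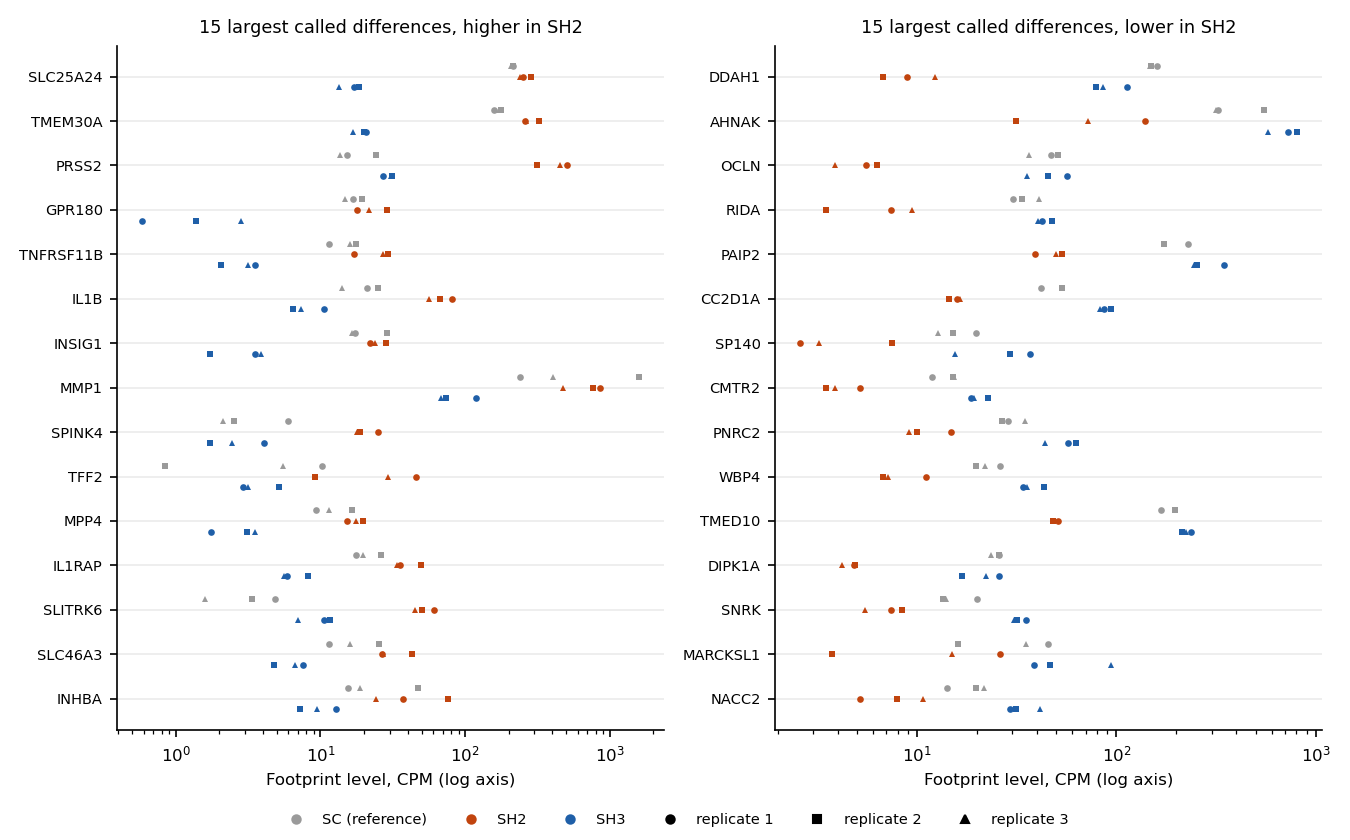
Footprint level (x axis, CPM, log axis) of the 15 genes with the largest called differences in each direction, 1 marker per library, shape giving the replicate and colour the hairpin, with SC in grey for reference. In each of the 30 genes the SH2 and SH3 markers do not overlap, which the rule that chose them required, and in the right panel SC lies nearer SH3 for most genes.

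SC was near SH2 for some of these genes and near SH3 for others. Among the 41 called genes at least 2 log2 units higher in SH2, the SC mean was nearer the SH2 mean in 27 and nearer SH3 in 14. Among the 32 at least 2 lower, it was nearer SH2 in 2 and nearer SH3 in 30. Over all 1256 called higher, however, it was nearer SH2 in 574 and nearer SH3 in 682. Over all 1203 called lower, it was nearer SH2 in 398 and nearer SH3 in 805. SC lay between the hairpins in 621 of the 1256 higher and 588 of the 1203 lower, above both in 256 and 433, and below both in 379 and 182. No test was made of these counts, since which mean is nearer says nothing of the spread.

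The encoded functions were then read from 55 gene lists holding 1558 distinct genes, of which 1346 were tested and 346 called. A list's count is to be read against the 12.1% of all tested genes called higher in SH2 and the 11.6% called lower. Of the 2459 called genes, 2413 had SH2 and SH3 libraries without overlap, so a lack of overlap in a called member was usual. Leaving out 1 library moved 35 of the 60 list counts of at least 3, and 27 of the 33 counts of 1 or 2, by more than 1.5 times. For the larger counts these libraries are named with the lists.

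**Figure D3:**
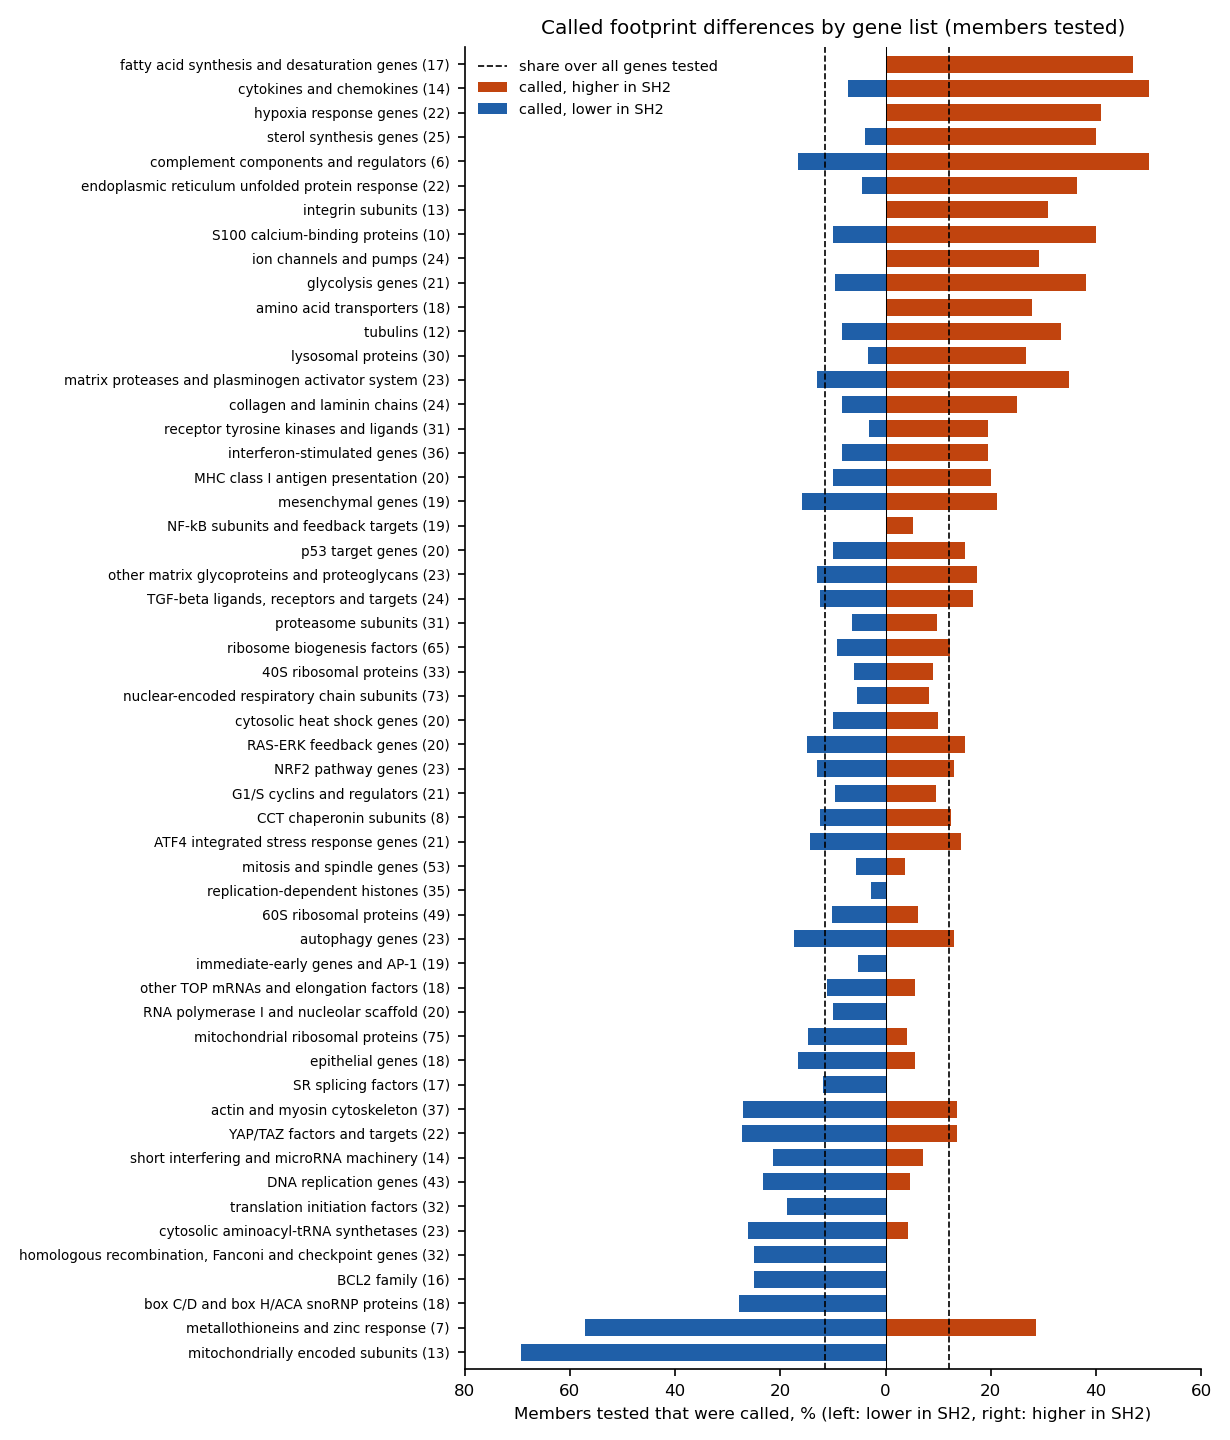
Share of tested members called higher in SH2 (right, orange) or lower (left, blue) in each list with at least 5 tested members, number tested in parentheses, with dashed lines at 11.6% and 12.1%, the shares over all genes. Lists are ordered by the difference between the shares, from fatty acid synthesis at the top to the mitochondrially encoded subunits at the bottom.

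Genes of secreted signals and of their receptors had more members called higher in SH2 than lower. Of 14 cytokines and chemokines tested, 7 were higher in SH2 and 1 was lower, with a median difference of 1.07 in footprints and 0.67 in RNA. Beside IL1B, TNFSF10 (TRAIL, a ligand of death receptors) stood at 15.9, 30.1 and 13.9 CPM in SH2 and 8.196, 4.79 and 4.21 CPM in SH3, a difference of 1.90 (SE 0.48, edgeR adjusted p 0.00983), a call lost without SH2 replicate 2, SH3 replicate 2 or SH3 replicate 3. CSF1, the growth factor of macrophages, stood at 230, 304 and 183 CPM in SH2 and 424, 296 and 356 CPM in SH3 and was lower, a difference of -0.58 (SE 0.18, edgeR adjusted p 0.0317), with overlapping groups. That call was lost without SH2 replicate 1 or 3 or SH3 replicate 1 or 3. The number of cytokines higher in SH2 was 4 without SH2 replicate 2 or SH3 replicate 3 and 3 without SH3 replicate 2. Of 31 receptor tyrosine kinases and their ligands, 6 were higher and 1 was lower. AREG (amphiregulin, a ligand of the epidermal growth factor receptor) stood at 214, 249 and 173 CPM in SH2 and 74.9, 78.4 and 65.9 CPM in SH3, a difference of 1.54 (SE 0.22, edgeR adjusted p 0.000135). Its receptor EGFR stood at 739.9, 1142 and 786 CPM in SH2 and 554, 518 and 461 CPM in SH3, a difference of 0.80 (SE 0.17, edgeR adjusted p 0.00277), and EPHA2, an ephrin receptor, at 1033, 1189 and 1185 CPM in SH2 and 603, 692 and 731 CPM in SH3, a difference of 0.75 (SE 0.14, edgeR adjusted p 0.00163). The libraries of the hairpins did not overlap in these 3 genes, and SC, at 47.7, 28.2 and 22.9 CPM for AREG and 166, 214 and 171 CPM for EGFR, was below both. MET, the receptor of hepatocyte growth factor, stood at 137, 191 and 123 CPM in SH2 and 320.2, 234 and 187 CPM in SH3 with overlap (-0.70, SE 0.21, edgeR adjusted p 0.0243), and its call was lost without SH2 replicate 1 or 3 or SH3 replicate 1 or 2. In this list 4 were lower without SH2 replicate 2 and 3 without SC replicate 1 or 2.

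Of 24 genes of transforming growth factor beta (TGF-beta) signalling, 4 were higher (16.7%) and 3 lower (12.5%), beside 12.1% and 11.6% of all genes. Both receptor subunits were higher in SH2: TGFBR1 stood at 159, 191 and 167 CPM in SH2 and 79.6, 65.05 and 74.7 CPM in SH3, a difference of 1.24 (SE 0.14, edgeR adjusted p 2.22e-05), and TGFBR2 at 629, 547 and 606 CPM in SH2 and 361, 324 and 396 CPM in SH3, a difference of 0.72 (SE 0.16, edgeR adjusted p 0.00368). LTBP2, a matrix protein related to those that store latent TGF-beta, stood at 2.59, 1.399 and 4.21 CPM in SH2 and 8.78, 9.59 and 14.4 CPM in SH3 and was lower, a difference of -2.07 (SE 0.44, edgeR adjusted p 0.0031). Of 20 feedback genes of the RAS-ERK cascade, 3 were higher and 3 lower (15% each), near the shares of all genes. DUSP6, a phosphatase of ERK, stood at 802, 593 and 745 CPM in SH2 and 409, 458 and 516 CPM in SH3, a difference of 0.63 (SE 0.14, edgeR adjusted p 0.00494), while SPRY2, an inhibitor of the cascade, stood at 59.6, 70.4 and 70.6 CPM in SH2 and 111, 132 and 144 CPM in SH3, a difference of -0.95 (SE 0.19, edgeR adjusted p 0.0023). Each of these 5 genes had SH2 and SH3 libraries apart. The number of TGF-beta genes lower was 1 without SH3 replicate 2, as was the number of feedback genes higher, which was 5 with the hairpin groups fitted alone.

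Proteins at the cell surface and in the matrix had called members on both sides. Of 23 matrix proteases and genes of plasminogen activation, 8 were higher and 3 lower, with medians of 0.40 in footprints and 0.27 in RNA. MMP1, the interstitial collagenase, stood at 859, 770.2 and 471 CPM in SH2 and 118, 73.6 and 68.4 CPM in SH3, a difference of 3.03 (SE 0.52, edgeR adjusted p 0.000617), with SC widely spread at 240.3, 1603 and 403 CPM. PLAT (tissue plasminogen activator) stood at 858, 917 and 765 CPM in SH2 and 282, 219 and 193 CPM in SH3, a difference of 1.88 (SE 0.18, edgeR adjusted p 6.2e-06), and PLAUR, the receptor of urokinase, at 309.9, 298 and 273 CPM in SH2 and 98.3, 116 and 105 CPM in SH3, a difference of 1.46 (SE 0.15, edgeR adjusted p 6.74e-06). These 3 were apart between the hairpins, and SC, at 265, 422 and 387 CPM for PLAT and 132, 168 and 179 CPM for PLAUR, was below SH2. ADAMTS12, a secreted metalloprotease, was lower at 14.1, 17.2 and 19.8 CPM in SH2 and 36.3, 36.98 and 40.3 CPM in SH3, a difference of -1.15 (SE 0.24, edgeR adjusted p 0.00265), as was ADAM15 (-0.86).

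Of 13 integrin subunits, 4 were higher in SH2 and none was lower, beside 12.1% and 11.6% of all genes, and the medians were 0.38 in footprints and 0.35 in RNA. ITGA2, the collagen-binding alpha-2 chain, stood at 1954, 2057 and 1392 CPM in SH2 and 810.2, 738 and 526 CPM in SH3, a difference of 1.38 (SE 0.25, edgeR adjusted p 0.000875). ITGA6, an alpha chain of laminin receptors, stood at 909, 873 and 833 CPM in SH2 and 513, 441 and 409 CPM in SH3, a difference of 0.94 (SE 0.14, edgeR adjusted p 0.000246). ITGB8, which with the alpha-V chain activates latent TGF-beta, was scarce but apart, at 11.1, 11.4 and 9.39 CPM in SH2 and 1.76, 1.37 and 1.05 CPM in SH3, a difference of 2.96 (SE 0.38, edgeR adjusted p 6e-05). Collagen and laminin chains had 6 of 24 higher and 2 lower. COL4A1, a basement membrane collagen, stood at 89.98, 154 and 139 CPM in SH2 and 45.1, 39.03 and 44.2 CPM in SH3, a difference of 1.59 (SE 0.25, edgeR adjusted p 0.000363), and LAMA5, a laminin alpha chain, at 189.6, 172 and 263 CPM in SH2 and 98.9, 103 and 140.2 CPM in SH3, a difference of 0.86 (SE 0.18, edgeR adjusted p 0.0031). In the other direction LAMA3, the alpha chain of laminin-332, stood at 7.04, 5.59 and 5.18 CPM in SH2 and 20.5, 21.9 and 14.7 CPM in SH3, a difference of -1.68 (SE 0.25, edgeR adjusted p 0.0002), and COL6A3 at 11.5, 22.4 and 21.7 CPM in SH2 and 48.6, 51.7 and 54.7 CPM in SH3, a difference of -1.46 (SE 0.23, edgeR adjusted p 0.00038). The list thus held called members with no overlap on both sides. The number higher was 3 without SH3 replicate 1.

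Of 23 other matrix glycoproteins and proteoglycans, 4 were higher (17.4%) and 3 lower (13%), beside 12.1% and 11.6% of all genes. GPC1, a glypican that binds growth factors through heparan sulfate, stood at 134, 108 and 203 CPM in SH2 and 31.03, 46.2 and 71.2 CPM in SH3, a difference of 1.55 (SE 0.26, edgeR adjusted p 0.000529). SRGN (serglycin, a proteoglycan of secretory granules) stood at 293, 290.2 and 229.5 CPM in SH2 and 132, 91.1 and 95.0 CPM in SH3, a difference of 1.36 (SE 0.21, edgeR adjusted p 0.000251), and SDC2, a syndecan, at 154, 121 and 139 CPM in SH2 and 63.2, 68.1 and 70.5 CPM in SH3, a difference of 1.03 (SE 0.14, edgeR adjusted p 0.000109). SH2 libraries were above SH3 libraries in all 3, and the number lower was 1 without SH2 replicate 2 or 3 or SH3 replicate 1. Of 10 tested S100 calcium-binding proteins, 4 were higher and 1 lower, with medians of 0.42 in footprints and 0.44 in RNA. S100A4, known for its part in motility, stood at 1625, 1696 and 1332 CPM in SH2 and 906, 849.8 and 898 CPM in SH3, a difference of 0.81 (SE 0.14, edgeR adjusted p 0.000851), and S100A10, the partner of annexin A2, at 1288, 1145 and 1117 CPM in SH2 and 649.8, 691 and 781 CPM in SH3, a difference of 0.74 (SE 0.13, edgeR adjusted p 0.000816). S100A13, which helps export proteins that lack a signal peptide, stood apart on the other side, at 60.4, 61.8 and 57.3 CPM in SH2 and 123, 110.3 and 123 CPM in SH3, a difference of -0.99 (SE 0.13, edgeR adjusted p 8.36e-05).

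Called genes of lipid synthesis were nearly all higher in SH2. Of 25 sterol synthesis genes and their regulators, 10 were higher in SH2 and 1 was lower, with a median of 0.41 in footprints and 0.09 in RNA. INSIG1, which holds the sterol sensor complex of SREBP in the endoplasmic reticulum, stood at 21.9, 28.4 and 23.6 CPM in SH2 and 3.51, 1.71 and 3.86 CPM in SH3, a difference of 3.06 (SE 0.34, edgeR adjusted p 1.52e-05). Its SH3 values were low, since 3 counts are 1.8, 1.05 and 1.09 CPM in these libraries. HMGCS1, which makes the precursor of mevalonate, stood at 88.5, 90.9 and 81.3 CPM in SH2 and 25.2, 24.3 and 30.5 CPM in SH3, a difference of 1.70 (SE 0.17, edgeR adjusted p 8.55e-06). In both the SH2 libraries were above the SH3 libraries, and SC, at 17.2, 28.6 and 16.5 CPM and 57.96, 84.3 and 67.6 CPM, was above SH3 and near SH2. ACAT2, a thiolase at the entry of the pathway, was lower at 67.02, 56.6 and 73.2 CPM in SH2 and 104, 106 and 106 CPM in SH3, a difference of -0.69 (SE 0.14, edgeR adjusted p 0.00304). The number of members higher in SH2 was 6 without SH3 replicate 2.

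Of 17 genes of fatty acid synthesis and desaturation, 8 were higher and none was lower, with medians of 0.40 in footprints and 0.16 in RNA. ELOVL6, an elongase of saturated fatty acids, stood at 68.9, 72.5 and 82.6 CPM in SH2 and 18.7, 15.1 and 14.02 CPM in SH3, a difference of 2.25 (SE 0.18, edgeR adjusted p 1.22e-06). ACSL3, which joins fatty acids to coenzyme A, stood at 258, 212 and 202 CPM in SH2 and 87.8, 79.8 and 86.6 CPM in SH3, a difference of 1.40 (SE 0.15, edgeR adjusted p 9.42e-06), and FADS2, the delta-6 desaturase, at 184, 167 and 219 CPM in SH2 and 86.6, 71.2 and 86.9 CPM in SH3, a difference of 1.22 (SE 0.16, edgeR adjusted p 5.43e-05). None of these groups overlapped, and SC was near SH2 for ELOVL6, at 57.96, 73.7 and 69.95 CPM, and above both hairpins for FADS2, at 247, 322 and 282 CPM. Many genes of both lists are known targets of the SREBP factors, which bind sterol regulatory elements. The core letters TCACNCCAC, searched on both strands in the 250 bases before the RefSeq start (GRCh38.p14), were present in 310 of 35116 promoters (0.883%) and in 1 of the 18 tested sterol genes with a promoter in the table, which was not a called gene.

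Glycolysis and the response to low oxygen also had more members called higher than lower. Of 21 glycolysis genes, 8 were higher and 2 lower, with medians of 0.30 in footprints and 0.21 in RNA. SLC2A1, the glucose transporter GLUT1, stood at 920.2, 1460 and 1244 CPM in SH2 and 371, 460.2 and 467 CPM in SH3, a difference of 1.48 (SE 0.20, edgeR adjusted p 0.000101), and SLC16A3, the lactate exporter MCT4, at 598, 712 and 854 CPM in SH2 and 338, 360.5 and 459 CPM in SH3, a difference of 0.90 (SE 0.17, edgeR adjusted p 0.00144). ALDOC, an aldolase, stood at 14.8, 10.02 and 14.6 CPM in SH2 and 2.93, 2.397 and 4.56 CPM in SH3, a difference of 1.95 (SE 0.32, edgeR adjusted p 0.000439), while ENO2, an enolase, stood lower at 32.2, 37.1 and 29.8 CPM in SH2 and 57.96, 50.7 and 77.5 CPM in SH3, a difference of -0.91 (SE 0.19, edgeR adjusted p 0.0027). SH2 and SH3 were apart in each of these 4 genes. Of 22 hypoxia response genes, 9 were higher and none was lower, with medians of 0.44 and 0.42. LOX, which cross-links collagen, stood at 42.95, 65.5 and 42.7 CPM in SH2 and 15.2, 11.98 and 10.5 CPM in SH3, a difference of 2.04 (SE 0.32, edgeR adjusted p 0.000338), and P4HA2, a collagen prolyl hydroxylase, at 146, 221 and 162 CPM in SH2 and 97.2, 75.7 and 86.2 CPM in SH3, a difference of 1.04 (SE 0.22, edgeR adjusted p 0.00284). The count of 9 was 4 without SH3 replicate 2 and 5 without SH3 replicate 3.

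Of 18 amino acid transporters, 5 were higher and none was lower, with medians of 0.42 in footprints and 0.08 in RNA. SLC7A11, the cystine-glutamate exchanger, stood at 66.7, 68.5 and 82.9 CPM in SH2 and 21.1, 20.2 and 19.3 CPM in SH3, a difference of 1.85 (SE 0.18, edgeR adjusted p 6.2e-06). SLC38A1, a carrier of glutamine and other neutral amino acids, stood at 216, 297 and 249.6 CPM in SH2 and 139, 131 and 128 CPM in SH3, a difference of 0.95 (SE 0.18, edgeR adjusted p 0.0014), with an RNA difference of 0.10. SLC7A2, a carrier of cationic amino acids, stood at 9.998, 10.7 and 8.42 CPM in SH2 and 3.51, 4.11 and 2.45 CPM in SH3, a difference of 1.54 (SE 0.38, edgeR adjusted p 0.00809). In all 3 every SH2 library was above every SH3 library. The number higher was 9 without SC replicate 1 and 8 without SC replicate 2, which enter through the filter, the scaling and the estimate of the spread. It was 9 with no filter on low counts and 10 with the hairpin groups fitted alone.

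Of 21 genes that the stress factor ATF4 induces, 3 were higher and 3 lower (14.3% each), near the 12.1% and 11.6% of all genes. The medians of the genes that ATF4 induces were -0.09 in footprints (0.02 without SH2 replicate 1) and 0.18 in RNA. Of its enzymes of serine synthesis, PSPH stood at 11.5, 9.09 and 16.2 CPM in SH2 and 36.3, 29.4 and 33.6 CPM in SH3, a difference of -1.44 (SE 0.22, edgeR adjusted p 0.000233), and PHGDH at 17.03, 19.4 and 31.1 CPM in SH2 and 38.05, 53.4 and 60.3 CPM in SH3, a difference of -1.19 (SE 0.24, edgeR adjusted p 0.00219). Both were lower in SH2, while PSAT1, which acts between them, did not pass (0.40, edgeR adjusted p 0.0941). SESN2, a leucine sensor that restrains mTORC1, was also lower at 10.4, 15.8 and 17.5 CPM in SH2 and 33.95, 33.5 and 38.6 CPM in SH3, a difference of -1.27 (SE 0.21, edgeR adjusted p 0.000468). GADD45A, a stress-induced gene of growth arrest, was higher at 64.4, 66.9 and 53.7 CPM in SH2 and 35.7, 39.03 and 41.02 CPM in SH3, a difference of 0.67 (SE 0.17, edgeR adjusted p 0.0105). These 4 had no overlap. Of 7 tested genes of metallothioneins and zinc handling, 2 were higher and 4 lower. The 2 higher were importers: SLC39A14 stood at 344, 440.3 and 368 CPM in SH2 and 160.4, 183 and 144 CPM in SH3, a difference of 1.24 (SE 0.21, edgeR adjusted p 0.000618), and SLC39A10 at 65.2, 69.0 and 53.7 CPM in SH2 and 35.1, 44.2 and 30.1 CPM in SH3, a difference of 0.78 (SE 0.18, edgeR adjusted p 0.00493). MTF1, the factor that responds to zinc, was lower at 6.29, 3.96 and 3.88 CPM in SH2 and 12.9, 15.8 and 15.4 CPM in SH3, a difference of -1.68 (SE 0.27, edgeR adjusted p 0.000392), and so was SLC30A1, the exporter of zinc from the cytosol, at 25.9, 23.1 and 31.7 CPM in SH2 and 50.4, 54.1 and 72.9 CPM in SH3, a difference of -1.15 (SE 0.18, edgeR adjusted p 0.000367). Importers and exporter lay on opposite sides, each without overlap. The number lower was 2 without SH3 replicate 2.

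Proteins of the endoplasmic reticulum and of lysosomes had more members called higher in SH2 than lower. Of 22 genes of the unfolded protein response, 8 were higher and 1 was lower, with medians of 0.20 in footprints (0.10 without SH3 replicate 3) and 0.29 in RNA. SEL1L, the scaffold of the ubiquitin ligase that retrotranslocates misfolded proteins, stood at 223, 279 and 194 CPM in SH2 and 79.03, 78.1 and 46.98 CPM in SH3, a difference of 1.78 (SE 0.20, edgeR adjusted p 1.96e-05). EIF2AK3 (PERK, a sensor of the response) stood at 37.8, 34.03 and 22.7 CPM in SH2 and 11.7, 19.9 and 15.4 CPM in SH3, a difference of 0.97 (SE 0.25, edgeR adjusted p 0.0102), and DNAJC10, a disulfide reductase of the compartment, at 91.5, 66.7 and 69.3 CPM in SH2 and 43.3, 36.6 and 31.2 CPM in SH3, a difference of 1.04 (SE 0.20, edgeR adjusted p 0.00181). The secreted MANF was lower, at 132, 112 and 116 CPM in SH2 and 219.5, 205 and 170 CPM in SH3, a difference of -0.72 (SE 0.14, edgeR adjusted p 0.00205). None of the 4 overlapped, and 5 members were higher without SH2 replicate 2 or SH3 replicate 2. Of 30 lysosomal proteins, 8 were higher and 1 was lower, with medians of 0.33 in footprints (0.17 without SH2 replicate 2) and 0.03 in RNA. LAMP2, a major membrane protein of lysosomes, stood at 416, 567 and 403 CPM in SH2 and 291, 209.5 and 226 CPM in SH3, a difference of 0.94 (SE 0.23, edgeR adjusted p 0.00781), with an RNA difference of 0.05. The number of lysosomal proteins higher was 3 without SH2 replicate 2 or SH3 replicate 3, 5 without SH2 replicate 3 and 2 without SH3 replicate 2. Of them 4 were lower without SC replicate 1 or 2, with no filter on low counts or with the hairpin groups fitted alone.

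Of 23 autophagy genes, 3 were higher (13%) and 4 lower (17.4%), beside 12.1% and 11.6% of all genes. BECN1 (beclin 1, of the lipid kinase complex that starts autophagosomes) stood at 67.8, 51.5 and 50.8 CPM in SH2 and 12.9, 19.5 and 16.1 CPM in SH3, a difference of 1.77 (SE 0.19, edgeR adjusted p 1.36e-05), and WIPI1, which binds the lipid it makes, at 42.6, 49.6 and 40.5 CPM in SH2 and 12.9, 19.2 and 20.7 CPM in SH3, a difference of 1.30 (SE 0.19, edgeR adjusted p 0.000214). ATG3 and ATG12, of the conjugation systems that attach LC3 to membranes, stood at 61.8, 39.6 and 38.9 CPM in SH2 and 144, 134 and 98.5 CPM in SH3 and at 17.8, 25.9 and 22.99 CPM in SH2 and 58.5, 39.03 and 49.1 CPM in SH3. The groups were apart in all 4 genes, and the differences of ATG3 and ATG12 were -1.43 and -1.11. The number lower was 2 without SH2 replicate 1 or SH3 replicate 3. Of 24 ion channels and pumps, 7 were higher and none was lower, with medians of 0.42 in footprints and 0.15 in RNA. ATP2B1, a calcium pump of the plasma membrane, stood at 481, 656 and 376 CPM in SH2 and 308, 267 and 198 CPM in SH3, a difference of 0.97 (SE 0.21, edgeR adjusted p 0.00408). STIM1, the calcium sensor of the endoplasmic reticulum, stood at 55.2, 64.6 and 57.95 CPM in SH2 and 37.5, 32.5 and 28.1 CPM in SH3, a difference of 0.87 (SE 0.17, edgeR adjusted p 0.00176), and ATP1B1, a subunit of the sodium pump, at 988, 1146 and 795 CPM in SH2 and 677, 477 and 484 CPM in SH3, a difference of 0.84 (SE 0.20, edgeR adjusted p 0.00651). SH2 was above SH3 in every library of the 3. The number higher was 4 without SH2 replicate 2 or SH3 replicate 1 and 3 without SH3 replicate 2 or 3.

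Genes of cytosolic protein quality control were called in both directions. Proteasome subunits had 3 of 31 higher (9.68%) and 2 lower (6.45%), and heat shock genes 2 of 20 in each direction (10%). Subunits of the CCT chaperonin had 1 of 8 in each (12.5%). These shares were below or near the 12.1% and 11.6% of all genes. BAG3, a co-chaperone of selective autophagy, stood at 266, 258 and 264 CPM in SH2 and 122, 133 and 129 CPM in SH3, a difference of 1.03 (SE 0.12, edgeR adjusted p 3.47e-05). PSMA5, a core proteasome subunit, stood at 313, 325 and 302 CPM in SH2 and 221, 196 and 203 CPM in SH3, a difference of 0.61 (SE 0.12, edgeR adjusted p 0.00253), and CCT6A at 942, 771 and 805 CPM in SH2 and 561, 599 and 575 CPM in SH3, a difference of 0.54 (SE 0.12, edgeR adjusted p 0.00533). These 3 were apart between the hairpins. The number of proteasome subunits higher was 1 without SH3 replicate 1 or 2. Of 23 genes of the antioxidant NRF2 pathway, 3 were higher and 3 lower (13% each), near the shares of all genes. TXNRD1, thioredoxin reductase, stood at 86.7, 75.1 and 90.3 CPM in SH2 and 202, 214 and 209 CPM in SH3, a difference of -1.31 (SE 0.13, edgeR adjusted p 7.97e-06), and FTH1, the heavy chain of ferritin, at 173, 156 and 135 CPM in SH2 and 312, 332 and 284 CPM in SH3, a difference of -1.001 (SE 0.19, edgeR adjusted p 0.00135). Both were lower in SH2, while PRDX1, a peroxiredoxin, was higher at 738, 823 and 796 CPM in SH2 and 515, 481 and 494 CPM in SH3, a difference of 0.66 (SE 0.12, edgeR adjusted p 0.000831). The number higher was 1 without SH3 replicate 2 and 5 without SC replicate 2 or with no filter on low counts.

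Ribosomal proteins, the partners of the RNA that fibrillarin modifies, were called in both directions, but at lower shares than all genes tested. Called higher and lower were 9.09% and 6.06% of small subunit proteins and 6.12% and 10.2% of large subunit ones, beside 12.1% and 11.6%. Of 33 proteins of the small (40S) subunit, 3 were higher and 2 lower, with a median of 0.14 in footprints (0.07 without SH2 replicate 1, 0.09 without SH3 replicate 1, 0.08 with library totals in place of TMM factors) and 0.02 in RNA. Of 49 proteins of the large (60S) subunit, 3 were higher and 5 lower, with medians of 0.03 and -0.09. RPS13, of the small subunit, stood at 1410, 1337 and 1421 CPM in SH2 and 940.2, 985 and 841 CPM in SH3, a difference of 0.59 (SE 0.12, edgeR adjusted p 0.00301). RPS26, which lies at the mRNA exit channel, stood at 441, 349.9 and 370 CPM in SH2 and 739, 819.7 and 572 CPM in SH3, a difference of -0.88 (SE 0.15, edgeR adjusted p 0.000677). RPL34 stood at 498, 486 and 488 CPM in SH2 and 328, 343 and 334 CPM in SH3, a difference of 0.55 (SE 0.12, edgeR adjusted p 0.0031). RPL19, of the large subunit, stood at 1392, 1071 and 1027 CPM in SH2 and 1942, 2523 and 1630 CPM in SH3, a difference of -0.81 (SE 0.16, edgeR adjusted p 0.00202), and its RNA difference was -0.03. The SC libraries of RPL19, at 962, 1006 and 978 CPM, were below both hairpins. These 4 had no overlap, but counts of ribosomal protein genes depend on how reads shared with pseudogene copies were treated, which is not given in the sources used here. The 40S count of 3 higher was 1 without SH2 replicate 3 or SH3 replicate 2, 7 without SC replicate 1 or with the hairpin groups alone, 5 without SC replicate 2, and 6 in DESeq2 or with no filter. The 60S count of 3 higher was 1 without SH2 replicate 3 or SH3 replicate 1 or 2. The 60S count of 5 lower was 8 with library totals in place of TMM factors or without SC replicate 1, 2 without SH2 replicate 2, and 3 without SH2 replicate 3 or any 1 of the SH3 replicates. The 60S footprint median ranged from -0.06 to 0.05 over the alternatives run.

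Of 32 translation initiation factors, none was higher and 6 were lower, with medians of -0.06 in footprints and -0.09 in RNA. EIF4G3, a scaffold of the cap-binding complex, stood at 53.3, 36.1 and 41.4 CPM in SH2 and 105, 93.5 and 75.7 CPM in SH3, a difference of -1.07 (SE 0.21, edgeR adjusted p 0.00193). EIF2B4, a subunit of the exchange factor for eIF2, stood at 30.4, 34.3 and 36.3 CPM in SH2 and 62.6, 75.3 and 69.4 CPM in SH3, a difference of -1.04 (SE 0.15, edgeR adjusted p 0.000176). Both were apart, whereas EIF3C, at 6.67, 6.06 and 5.83 CPM in SH2 and 6.44, 22.6 and 16.1 CPM in SH3, overlapped (-1.35, SE 0.39, edgeR adjusted p 0.0194) and has a near-identical copy in the genome. The EIF3C call was lost without SH2 replicate 2 or 3, without SH3 replicate 2 or 3, or with libraries thinned to 1 total, and 3 factors were lower without SH2 replicate 3. Of 23 cytosolic aminoacyl-tRNA synthetases, 1 was higher and 6 were lower. EPRS1, which charges tRNAs with glutamate and proline, stood at 234, 274 and 188 CPM in SH2 and 551, 513 and 463 CPM in SH3, a difference of -1.13 (SE 0.15, edgeR adjusted p 7.29e-05), and FARSB, a subunit of the phenylalanine enzyme, at 96.3, 80.9 and 87.7 CPM in SH2 and 137, 157 and 130.1 CPM in SH3, a difference of -0.68 (SE 0.14, edgeR adjusted p 0.0026). Neither overlapped. The number of synthetases lower was 3 without SH2 replicate 1 or SH3 replicate 1 and 2 without SH2 replicate 3 or SH3 replicate 2.

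Proteins of snoRNPs were listed for the box C/D class, in which fibrillarin works, and the box H/ACA class together. Some were called lower in SH2, and in the main fit none was called higher. Of 18 protein components and assembly factors of snoRNPs, 5 were lower, with medians of -0.18 in footprints (-0.28 without SH3 replicate 1) and -0.17 in RNA. NUFIP1, an assembly factor of box C/D particles, stood at 20.0, 15.2 and 17.2 CPM in SH2 and 31.6, 32.2 and 26.3 CPM in SH3, a difference of -0.79 (SE 0.20, edgeR adjusted p 0.00945), a call lost without SH2 replicate 2 or SH3 replicate 2. SNU13, a core protein of box C/D particles, stood at 156, 220.3 and 180 CPM in SH2 and 391, 263 and 224 CPM in SH3, a difference of -0.65 (SE 0.22, edgeR adjusted p 0.0439), and GAR1, of box H/ACA particles, at 47.4, 48.5 and 47.6 CPM in SH2 and 55.03, 83.2 and 79.9 CPM in SH3, a difference of -0.62 (SE 0.17, edgeR adjusted p 0.0159). The SH2 values of SNU13 lay below the SH3 values by a narrow margin. The SNU13 call was lost without SH2 replicate 1 or 3, without SH3 replicate 1 or 2, or after thinning, and the GAR1 call without SH2 replicate 3 or SH3 replicate 2 or 3. The number of snoRNP genes lower was 0 without SH3 replicate 2, 2 without SH2 replicate 1 or 3, and 3 without SH2 replicate 2 or SH3 replicate 1 or 3. The number higher was 2 without SC replicate 1.

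Of 65 other ribosome biogenesis factors, 8 were higher (12.3%) and 6 lower (9.23%), near the shares of all genes. NMD3, the adaptor that exports the large subunit, stood at 130.3, 120 and 113 CPM in SH2 and 81.96, 72.2 and 53.6 CPM in SH3, a difference of 0.82 (SE 0.16, edgeR adjusted p 0.00151), and WDR36, of the small subunit processome, at 157, 162 and 152 CPM in SH2 and 93.1, 103 and 84.8 CPM in SH3, a difference of 0.75 (SE 0.14, edgeR adjusted p 0.00154). UTP18, also of the processome, stood at 58.1, 40.3 and 50.2 CPM in SH2 and 96.01, 142 and 121 CPM in SH3, a difference of -1.29 (SE 0.18, edgeR adjusted p 0.000101), and RRP12, an export factor, at 76.7, 86.5 and 90.97 CPM in SH2 and 149, 222 and 203 CPM in SH3, a difference of -1.18 (SE 0.18, edgeR adjusted p 0.000274). The 4 lay on opposite sides by pairs, each without overlap. The number higher was 5 with library totals in place of TMM factors or without SH2 replicate 1 or 3, 4 without SH2 replicate 2 or SH3 replicate 1 or after thinning, and 3 without SH3 replicate 3. The number lower was 2 without SH2 replicate 2 or SH3 replicate 2 and 3 without SH2 replicate 3. Of 20 genes of RNA polymerase I and the nucleolar scaffold, 2 were lower. One was NPM1 (nucleophosmin, the abundant nucleolar chaperone), at 1243, 814 and 841 CPM in SH2 and 1873, 2289 and 1643 CPM in SH3, a difference of -1.003 (SE 0.17, edgeR adjusted p 0.000506), with SC at 2125, 2136 and 2274 CPM.

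Mitochondrially encoded subunits of the respiratory chain had the lowest median difference of the 55 lists. Of the 13 protein-coding genes, 9 were lower in SH2 and none was higher, with a median of -1.21 in footprints and -0.43 in RNA, where 3 were lower. MT-CYB (cytochrome b, of complex III) stood at 85.5, 129 and 95.2 CPM in SH2 and 358, 320.5 and 196 CPM in SH3, a difference of -1.49 (SE 0.39, edgeR adjusted p 0.0116). MT-CO2, of cytochrome c oxidase, stood at 140.3, 146 and 161 CPM in SH2 and 461, 458 and 243 CPM in SH3, a difference of -1.37 (SE 0.37, edgeR adjusted p 0.0131). MT-ATP6, of ATP synthase, stood at 46.7, 41.7 and 45.3 CPM in SH2 and 124, 130.5 and 79.6 CPM in SH3, a difference of -1.32 (SE 0.38, edgeR adjusted p 0.019). Within SH3, replicate 3 was the lowest of the 3 libraries in each gene, yet it stayed above the SH2 libraries, and in the whole list MT-ATP8 was the member whose groups overlapped. SC was widely spread, at 565, 375 and 113 CPM for MT-CYB. Mitochondrial transcripts took 0.12% to 0.149% of footprint counts in SH2, 0.234% to 0.368% in SH3 and 0.166% to 0.66% in SC, and 2.52% to 3.3%, 3.63% to 5.08% and 6.31% to 10.7% of RNA counts. These genes are translated by mitochondrial and not by cytosolic ribosomes. The number lower was 1 without SH2 replicate 1, 5 without SH2 replicate 2 or 3, 4 without SH3 replicate 1 and 3 without SH3 replicate 2. MT-CYB lost its call without SH2 replicate 1 or 3, MT-CO2 without SH2 replicate 1 or SH3 replicate 2, and MT-ATP6 without any 1 of the SH2 replicates, without SH3 replicate 1 or 2, and in DESeq2.

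**Figure D4:**
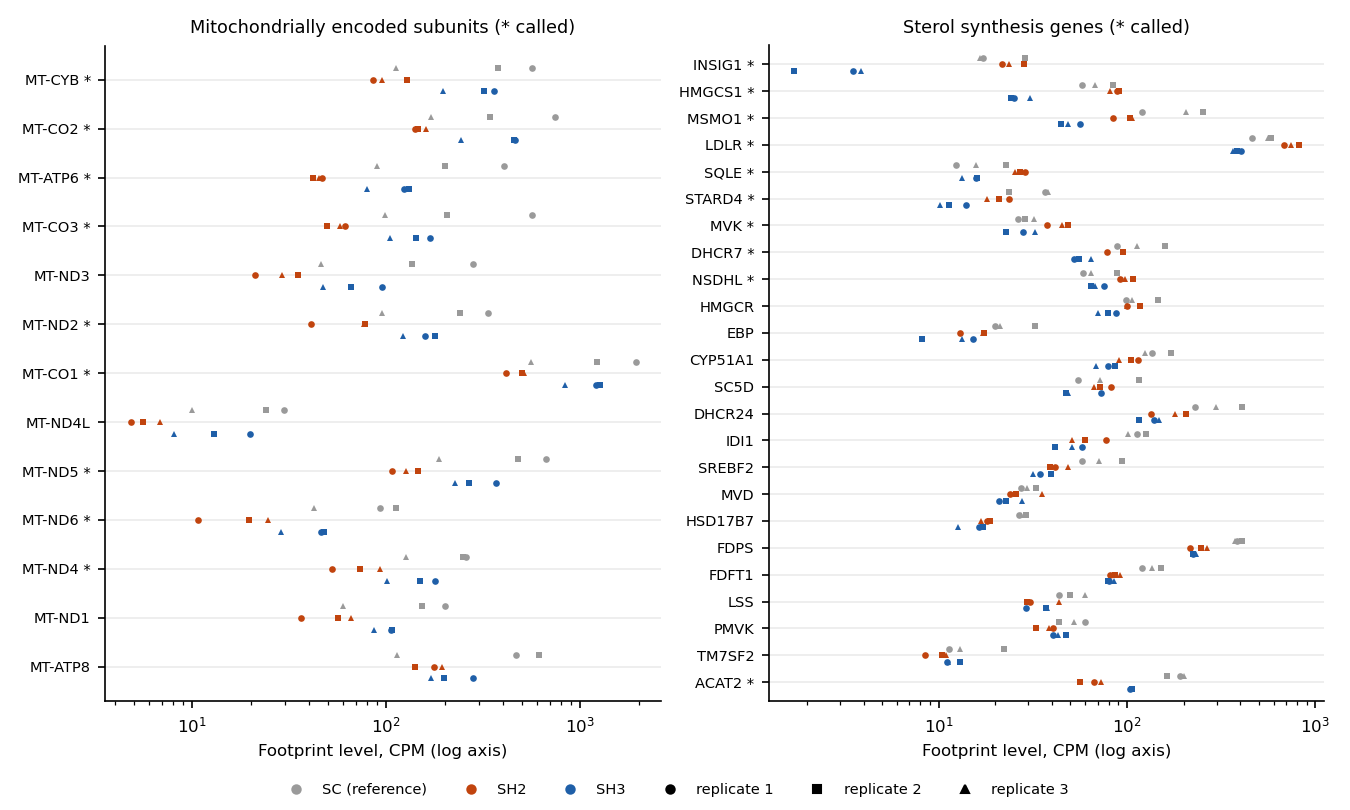
Footprint level (x axis, CPM, log axis) of the 13 mitochondrially encoded genes (left) and of sterol synthesis genes (right), 1 marker per library, shape giving the replicate and colour the hairpin, with SC in grey; an asterisk marks a called gene. SH2 lies to the left of SH3 in the mitochondrial genes and to the right in most sterol genes, and SC is spread widely in the left panel.

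Nuclear genes for mitochondrial proteins had called members on both sides. Of 73 nuclear-encoded respiratory chain subunits, 6 were higher (8.22%) and 4 lower (5.48%), below the 12.1% and 11.6% of all genes. The number higher was 11 with the hairpin groups fitted alone. COX7A2, of cytochrome c oxidase, stood at 227, 232 and 243 CPM in SH2 and 124, 133 and 139.9 CPM in SH3, a difference of 0.82 (SE 0.13, edgeR adjusted p 0.00031), and NDUFA5, of complex I, at 8.89, 12.1 and 14.2 CPM in SH2 and 37.5, 31.2 and 32.2 CPM in SH3, a difference of -1.49 (SE 0.23, edgeR adjusted p 0.000291). Of 75 mitochondrial ribosomal proteins, 3 were higher (4%) and 11 lower (14.7%). MRPS5 stood at 52.6, 46.4 and 43.1 CPM in SH2 and 136, 137 and 128 CPM in SH3, a difference of -1.50 (SE 0.14, edgeR adjusted p 4.94e-06), MRPL37 at 38.5, 38.2 and 43.7 CPM in SH2 and 79.6, 118 and 102 CPM in SH3, a difference of -1.32 (SE 0.17, edgeR adjusted p 5.14e-05), and MRPS12 at 38.5, 41.3 and 44.03 CPM in SH2 and 16.4, 29.4 and 23.5 CPM in SH3, a difference of 0.81 (SE 0.20, edgeR adjusted p 0.00816). MRPS5 and MRPL37 were lower in every SH2 library and MRPS12 was higher in every one. The number of mitochondrial ribosomal proteins lower was 7 without SH2 replicate 2 or SH3 replicate 2 and 6 without SH2 replicate 3, and the number higher was 1 without SH2 replicate 3 or SH3 replicate 1 or 2.

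Genes of DNA replication and repair had more members called lower in SH2 than higher, in footprints and in RNA. Of 43 replication genes, 2 were higher and 10 lower in footprints, with a median of -0.32, and 1 was higher and 26 lower in RNA, with a median of -0.38. MCM7 and MCM2, of the replicative helicase, stood at 75.5, 58.97 and 107 CPM in SH2 and 308, 354 and 362 CPM in SH3 and at 67.02, 71.6 and 74.8 CPM in SH2 and 143, 168 and 186 CPM in SH3, with differences of -2.09 and -1.22. GINS1, which activates that helicase, stood at 9.63, 9.56 and 11.7 CPM in SH2 and 21.1, 21.6 and 23.5 CPM in SH3, a difference of -1.11 (SE 0.20, edgeR adjusted p 0.00104). GMNN (geminin, which prevents relicensing of origins) was higher at 83.3, 90.4 and 89.7 CPM in SH2 and 63.2, 61.3 and 59.6 CPM in SH3, a difference of 0.52 (SE 0.13, edgeR adjusted p 0.00992). SC was near or above SH3 for MCM7, at 388, 346 and 462 CPM, and above both hairpins for GINS1 and GMNN, at 46.4, 37.5 and 46.2 CPM and 168, 190.4 and 173 CPM. The number lower was 5 without SH2 replicate 2, 6 without SH3 replicate 2 or 3, and 16 with the hairpin groups fitted alone.

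Of 32 genes of homologous recombination, the Fanconi pathway and checkpoints, none was higher and 8 were lower in footprints (median -0.43), and 25 were lower in RNA (median -0.45). BLM, a RecQ helicase, stood at 6.67, 6.29 and 3.56 CPM in SH2 and 14.6, 11.6 and 14.02 CPM in SH3, a difference of -1.26 (SE 0.29, edgeR adjusted p 0.00533). RBBP8 (CtIP, which starts resection of DNA ends) stood at 13.3, 9.09 and 13.6 CPM in SH2 and 26.9, 33.9 and 23.1 CPM in SH3, a difference of -1.25 (SE 0.24, edgeR adjusted p 0.0018), and RAD54L, a motor of strand exchange, at 1.85, 2.797 and 4.86 CPM in SH2 and 8.196, 10.6 and 8.76 CPM in SH3, a difference of -1.54 (SE 0.35, edgeR adjusted p 0.00476). The other called members were BRCA2, RAD51AP1, FANCD2, CHEK1 and WEE1, at -1.11, -1.17, -0.48, -0.68 and -1.11, which were singled out after their values were seen. SH2 was below SH3 in all libraries of BLM, RBBP8 and RAD54L, and SC was at or above SH3 at 20.1, 13.5 and 20.6 CPM, 60.1, 42.1 and 41.01 CPM and 15.1, 10.9 and 10.8 CPM. Between 7 and 11 members were lower under the alternatives run.

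Other genes of the cell cycle were called in both directions. Of 53 genes of mitosis and the spindle, 2 were higher (3.77%) and 3 lower (5.66%). Of 21 cyclins and regulators of the G1/S transition, 2 were called in each direction (9.52%). These shares were below the 12.1% and 11.6% of all genes. The number of mitosis genes higher was 7 without SH2 replicate 1, 5 without SH3 replicate 1, 4 without SC replicate 2, and 1 without SH2 replicate 2 or 3 or SH3 replicate 2, and the number lower was 0 without SH2 replicate 2 and 1 without SH3 replicate 1. CCND1 (cyclin D1) stood at 173, 247 and 292 CPM in SH2 and 546, 752 and 824 CPM in SH3, a difference of -1.57 (SE 0.19, edgeR adjusted p 3.28e-05), with SC at 585, 639 and 719.5 CPM near SH3. CDK6, a kinase partner of D-type cyclins, was higher at 164, 169.5 and 153 CPM in SH2 and 111, 102 and 101 CPM in SH3, a difference of 0.63 (SE 0.13, edgeR adjusted p 0.0031), with SC below both at 32.96, 30.8 and 26.3 CPM. Of 20 genes induced by p53, 3 were higher (15%) and 2 lower (10%), near the shares of all genes. This line is known to carry mutant p53. CDKN1A (the inhibitor p21) stood at 219, 195 and 176 CPM in SH2 and 62.6, 53.4 and 64.8 CPM in SH3, a difference of 1.71 (SE 0.16, edgeR adjusted p 4.94e-06), while MDM2, the ubiquitin ligase of p53, stood at 12.6, 6.76 and 9.71 CPM in SH2 and 35.1, 24.6 and 21.4 CPM in SH3, a difference of -1.49 (SE 0.26, edgeR adjusted p 0.00067). Both were apart between the hairpins, in opposite directions. Of 16 members of the BCL2 family, which governs apoptosis, none was higher and 4 were lower. BAD, which binds survival members of the family, stood at 20.7, 24.01 and 25.2 CPM in SH2 and 39.2, 31.2 and 45.9 CPM in SH3, a difference of -0.73 (SE 0.19, edgeR adjusted p 0.0108), a call lost without SH3 replicate 3. No BCL2 family member was lower without that library, 2 without SH2 replicate 1, and 1 without SH2 replicate 2 or SH3 replicate 2 or after thinning. Of 35 replication-dependent histones, which also share near-identical copies, 1 was lower.

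Interferon-stimulated genes were called in both directions. Of 36 tested, 7 were higher in SH2 (19.4%) and 3 lower (8.33%), with medians of 0.34 in footprints and 0.27 in RNA. Interferons act through a complex that holds STAT2 and IRF9 and binds an element read here as 2 TTTC repeats. The letters TTTCNNTTTC were searched on both strands in the 250 bases before the RefSeq start (GRCh38.p14). They were present in 17 of the 28 tested interferon-stimulated genes with a promoter in the table (60.7%) and in 1061 of all 35116 promoters (3.02%). Among those 28, the letters were in 4 of the 5 called higher in SH2, in the 1 called lower and in 12 of the 22 not called (54.5%). Whether the element bears on the direction of a difference was not tested. The windows of 3 of the called genes with a match are printed, with the matches, on either strand, in capitals. IFI27 and IFIT1 are shown from those higher in SH2, and IFI6 is the 1 lower. These windows are examples. They lie at chr14:94110603-94110675 (plus strand), chr10:89392482-89392554 (plus strand) and chr1:27672251-27672373 (minus strand), just before the gene starts, and are written along the gene's strand.
IFI27: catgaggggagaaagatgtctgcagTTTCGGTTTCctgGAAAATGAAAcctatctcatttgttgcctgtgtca
IFIT1: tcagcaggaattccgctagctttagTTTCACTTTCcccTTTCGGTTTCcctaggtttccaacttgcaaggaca
IFI6: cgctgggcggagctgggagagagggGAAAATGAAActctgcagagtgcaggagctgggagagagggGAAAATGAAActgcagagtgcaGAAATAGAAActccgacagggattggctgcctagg

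IFIT1, which binds foreign RNA ends, stood at 59.99, 100.5 and 64.8 CPM in SH2 and 42.1, 22.6 and 46.3 CPM in SH3, a difference of 1.04 (SE 0.24, edgeR adjusted p 0.00555). IFI27, a mitochondrial protein induced by type I interferon, stood at 16.7, 30.1 and 10.7 CPM in SH2 and 9.37, 4.79 and 7.01 CPM in SH3, a difference of 1.52 (SE 0.41, edgeR adjusted p 0.0136), a call lost without SH2 replicate 2 or SH3 replicate 2. IFI6, another mitochondrial protein so induced, stood at 12.96, 8.16 and 8.42 CPM in SH2 and 38.05, 18.8 and 27.3 CPM in SH3, a difference of -1.50 (SE 0.29, edgeR adjusted p 0.00175). Neither IFIT1 nor IFI6 overlapped between the hairpins, and SC stood at 112, 102 and 91.4 CPM for IFIT1 and 31.5, 21.9 and 19.7 CPM for IFI6. The number of interferon-stimulated genes higher in SH2 was 11 with no filter on low counts, 3 without SH2 replicate 2, 2 without SH3 replicate 2 and 4 without SH3 replicate 3. Among them 1 was lower without SH2 replicate 3.

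Of 20 genes of MHC class I antigen presentation, 4 were higher (20%) and 2 lower (10%), beside 12.1% and 11.6% of all genes. PSMB9, a subunit of the immunoproteasome, stood at 52.6, 52.9 and 42.4 CPM in SH2 and 28.1, 32.2 and 29.4 CPM in SH3, a difference of 0.72 (SE 0.18, edgeR adjusted p 0.01), and TAPBP (tapasin, which loads peptides) at 256, 324 and 286 CPM in SH2 and 174, 192 and 193 CPM in SH3, a difference of 0.63 (SE 0.15, edgeR adjusted p 0.00553). Both were apart, with SC below both hairpins. The number higher was 2 without SH2 replicate 2 or SH3 replicate 2 or 3. Of 6 tested complement components and regulators, 3 were higher and 1 was lower. CD59 and CD55, surface inhibitors of complement, stood at 82.6, 60.6 and 55.4 CPM in SH2 and 38.6, 24.6 and 23.8 CPM in SH3 and at 226, 166 and 149.9 CPM in SH2 and 121, 113 and 109 CPM in SH3, with differences of 1.22 and 0.66. Both were higher in every SH2 library. Of 19 NF-kB subunits and feedback targets, 1 was higher (TNFAIP2, 0.64) and none was lower, and that call was lost in 8 of the alternatives run.

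Genes of the actin cytoskeleton had more members called lower in SH2 than higher. Of 37 genes of actin and myosin, 5 were higher and 10 lower. MYL9, a regulatory light chain of myosin, stood at 55.5, 58.3 and 57.95 CPM in SH2 and 209, 188 and 219 CPM in SH3, a difference of -1.84 (SE 0.14, edgeR adjusted p 3.78e-07). TMSB4X (thymosin beta-4, which sequesters actin) stood at 444, 339.9 and 326 CPM in SH2 and 981, 740.3 and 954 CPM in SH3, a difference of -1.27 (SE 0.27, edgeR adjusted p 0.00278), with SC at 3556, 1384 and 1672 CPM above both. TAGLN (transgelin) was scarce and lower, at 1.85, 1.63 and 4.86 CPM in SH2 and 8.196, 8.22 and 16.5 CPM in SH3, a difference of -2.03 (SE 0.42, edgeR adjusted p 0.00259), or -2.67 without SH2 replicate 3. EZR (ezrin, which ties membranes to actin) was higher at 503, 519 and 540.3 CPM in SH2 and 297, 359.5 and 377 CPM in SH3, a difference of 0.59 (SE 0.13, edgeR adjusted p 0.00408). All 4 were without overlap, and 3 members were higher without SH3 replicate 2. Of 12 tubulins, 4 were higher and 1 was lower. TUBB6 stood at 115, 138 and 145 CPM in SH2 and 60.9, 68.1 and 66.6 CPM in SH3, a difference of 1.02 (SE 0.14, edgeR adjusted p 0.000111), and the number higher was 2 with library totals in place of TMM factors or without SH2 replicate 2, SH3 replicate 1 or SH3 replicate 2.

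Of 22 factors and targets of the YAP/TAZ pathway, 3 were higher and 6 lower. Its kinases went both ways: LATS1 stood at 60.4, 46.6 and 55.7 CPM in SH2 and 31.03, 32.5 and 23.5 CPM in SH3, a difference of 0.90 (SE 0.18, edgeR adjusted p 0.00181), LATS2 at 9.63, 13.5 and 9.06 CPM in SH2 and 32.2, 29.1 and 25.2 CPM in SH3, a difference of -1.39 (SE 0.23, edgeR adjusted p 0.000568), and STK4, the kinase above them, at 70.4, 51.3 and 58.3 CPM in SH2 and 135, 130.5 and 125 CPM in SH3, a difference of -1.12 (SE 0.15, edgeR adjusted p 7.76e-05). TEAD4, a DNA-binding partner of YAP, was lower at 19.6, 12.3 and 20.1 CPM in SH2 and 36.9, 45.5 and 53.3 CPM in SH3, a difference of -1.42 (SE 0.24, edgeR adjusted p 0.000616). Each was apart between the hairpins. Of 19 mesenchymal genes, 4 were higher (21.1%) and 3 lower (15.8%). Of 18 epithelial genes, 1 was higher (5.56%) and 3 lower (16.7%), beside 12.1% and 11.6% of all genes. CDH11, a cadherin of mesenchymal cells, stood at 194, 240.1 and 152 CPM in SH2 and 140.5, 90.4 and 78.5 CPM in SH3, a difference of 0.94 (SE 0.20, edgeR adjusted p 0.00326), and NT5E (CD73, which makes adenosine) at 925, 1054 and 834 CPM in SH2 and 628, 453 and 438 CPM in SH3, a difference of 0.89 (SE 0.15, edgeR adjusted p 0.000741). DSP (desmoplakin, of desmosomes) was higher at 214, 254 and 199 CPM in SH2 and 138, 118 and 126 CPM in SH3, a difference of 0.81 (SE 0.14, edgeR adjusted p 0.000867), opposite to OCLN. The number of epithelial genes lower was 1 without SH2 replicate 1 or SH3 replicate 1 or 3. The number of mesenchymal genes higher was 7 with no filter on low counts or with the hairpin groups fitted alone.

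Of 14 genes of the short interfering and microRNA machinery, on which the hairpins themselves depend, 1 was higher and 3 were lower. DICER1, which cuts hairpins to short RNAs, stood at 94.4, 114 and 96.2 CPM in SH2 and 72.6, 53.1 and 52.9 CPM in SH3, a difference of 0.79 (SE 0.16, edgeR adjusted p 0.00228). AGO2, the Argonaute that cuts target mRNA, stood at 47.8, 63.2 and 62.8 CPM in SH2 and 116, 107 and 115 CPM in SH3, a difference of -0.95 (SE 0.15, edgeR adjusted p 0.000346), and TNRC6A, its partner in silencing, at 36.3, 42.9 and 33.02 CPM in SH2 and 105, 60.6 and 83.4 CPM in SH3, a difference of -1.13 (SE 0.22, edgeR adjusted p 0.00163). These 3 had no overlap, with SC for AGO2 at 82.2, 100.3 and 95.7 CPM. Of 17 SR splicing factors and their kinases, 2 were lower, of 19 immediate-early genes 1 was lower, and of 18 other mRNAs with a terminal oligopyrimidine tract or encoding elongation factors, 1 was higher and 2 were lower. Of 2 HOX genes tested, neither was called.

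**Figure D5:**
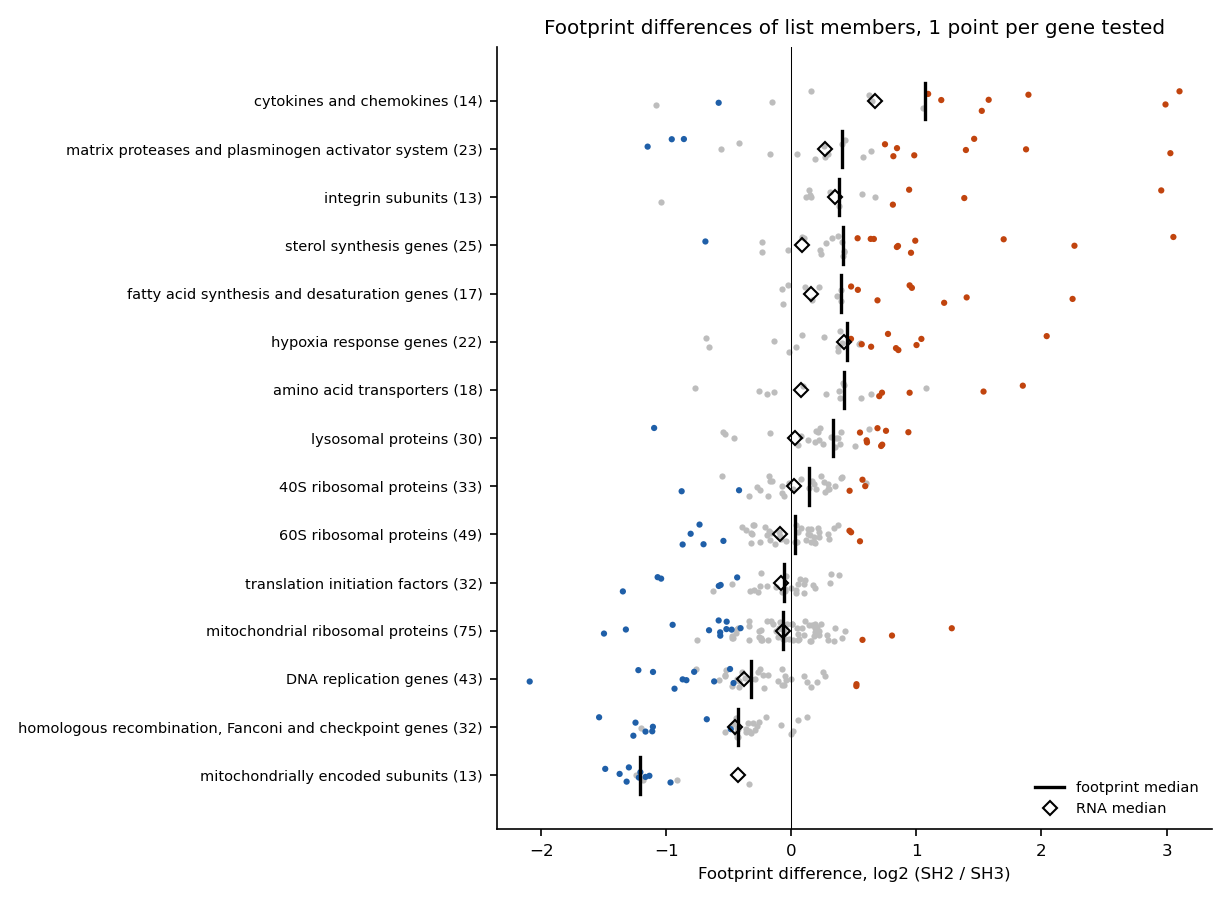
Footprint difference (x axis, log2 of SH2 over SH3) of each tested member of 15 gene lists, 1 point per gene, orange where called higher in SH2, blue where called lower and grey where not called, with the number tested in parentheses. Bars mark footprint medians and open diamonds RNA medians, from a footprint median of 1.07 for cytokines to -1.21 for mitochondrially encoded subunits.

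Footprints relative to RNA were tested as the interaction of library kind and hairpin, which is the difference in translational efficiency. Of 12531 genes tested, 2 were called in edgeR, while 1471 had an unadjusted p under 0.05. BASP1, a protein of the inner face of the plasma membrane, stood in footprints at 104, 89.3 and 79.3 CPM in SH2 and 120, 132 and 133 CPM in SH3. In RNA it stood at 77.7, 69.3 and 74.6 CPM in SH2 and 45.5, 49.2 and 49.6 CPM in SH3. Footprints were thus lower in SH2 and RNA was higher, without overlap in either, and the difference in efficiency was -1.15 (SE 0.19, edgeR adjusted p 0.0326). ZFP91, a zinc finger ubiquitin ligase, stood in footprints at 21.9, 20.1 and 22.3 CPM in SH2 and 39.2, 33.2 and 35.1 CPM in SH3 and in RNA at 37.3, 42.2 and 44.8 CPM in SH2 and 30.1, 33.4 and 31.5 CPM in SH3, a difference in efficiency of -1.15 (SE 0.19, edgeR adjusted p 0.0326). A footprint and an RNA library of the same treatment and number came from the same lysate, a pairing that the main fit did not use. With each lysate as a block, edgeR called none (1178 at an unadjusted p under 0.05). BASP1 and ZFP91 were then at an edgeR adjusted p of 0.223. DESeq2 called 254 genes. Calls ranged from 0 to 51 when single libraries were left out. Leaving out SC replicate 1 gave 51, SC replicate 2 gave 3, SH2 replicate 1 gave 1, and any other library gave 0. No member of the 55 lists was among the 2 genes, so the footprint and RNA medians given for the lists are values side by side.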

How the data were processed

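The authors deposited raw counts per gene symbol for 9 footprint and 9 RNA libraries, with a read length of 26 to 30 bases in the table's label. Bowtie 1.2.2 and DESeq2 are named in the submitters' processing notes. The genome build and the handling of reads with several matches are not given in the sources used here. The same deposited table holds normalized values (signal), log2 fold changes and p-values from the authors' comparisons of each hairpin with SC, which were not used. No deposited comparison of SH2 with SH3 was used.

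Counts of the 9 footprint libraries were filtered (filterByExpr), scaled with TMM and tested with edgeR 4.0.16 (quasi-likelihood, R 4.3.3), contrast SH2 minus SH3. Tests were two-sided, with Benjamini-Hochberg adjustment over all genes tested, and called at an adjusted p under 0.05. RNA counts were fitted alike, and translational efficiency as the interaction in 1 fit of all 18 libraries. SE is the absolute log2 difference over the square root of F. The members and gene lists were chosen with earlier results of these data known, and they carry no test of their own. Genes are named where they are FBL, 1 of the 15 largest called differences in each direction (no overlap between hairpins, mean count of at least 30), up to 3 called members per list and direction, or called in the efficiency test. Some genes that this rule names are not reported here. Replicate libraries differed by more than sampling noise (chi-square per degree of freedom of 3.38 to 7). On simulated counts, the footprint fit of 10201 genes recovered 78.4% of genes changed by 1 log2 unit and 100% of those changed by 2. There 97 genes were changed by 1 and 100 by 2, fewer than were called in the data. The efficiency fit of 12388 genes recovered 59% and 92.8%. Whether these shares hold for the measured counts was not tested. Promoter sequences are RefSeq, GRCh38.p14. Alternatives were other scalings, DESeq2 1.42.0, no filter, the hairpin groups alone, a block, thinning, other thresholds and leaving out each library. The block was the replicate number, or the lysate in the efficiency fit.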

Additional observations from a re-analysis of the deposited data

Results flagged for a closer look

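The test of footprints relative to RNA singled out 2 genes whose footprint and RNA differences between the hairpins were unequal. BASP1 had a difference in efficiency of -1.147 (SE 0.189, edgeR adjusted p 0.0326), lower in SH2, with the footprint libraries of SH2 below and its RNA libraries above those of SH3 in all 3 replicates. ZFP91 had a difference of -1.148 (SE 0.191, edgeR adjusted p 0.0326), with the same pattern. Each was called in 7 of 15 alternatives run, with log2 differences from -1.21 to -1.05 for BASP1 and from -1.23 to -1.06 for ZFP91.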

How the results depend on the processing

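The number of genes called in footprints was 1301 at an adjusted p under 0.01 (689 higher, 612 lower) and 874 with an absolute difference of at least 1 (450 higher, 424 lower). Leaving out 1 library gave 1541 to 2928 calls, 779 to 1471 higher and 762 to 1457 lower in SH2. The lowest of each came without SH3 replicate 2, where 1506 of the 2459 genes were called again, all in the same direction. With library totals in place of TMM factors the median over all genes was -0.06 and 41.9% of calls were higher in SH2, against 51.1%. In RNA 3152 genes were called at an adjusted p under 0.01 and 955 with a difference of at least 1, and 3726 to 5424 when 1 library was left out. In translational efficiency DESeq2 called 254 genes, edgeR 35 with no filter and 36 with the hairpin groups alone, 0 at an adjusted p under 0.01, and 0 to 51 when 1 library was left out. The FBL difference was -0.354 without SH2 replicate 3 and 1.564 without SH2 replicate 2. Whether replicate numbers pair SH2 with SH3 libraries was not settled. The correlations of deviations were -0.014, -0.114 and 0.302 for the same number and -0.231 to 0.234 for different numbers. With the replicate number as a block, 3019 genes were called in footprints and 5780 in RNA, against 2459 and 4993 without it. With each lysate as a block, 0 genes were called in translational efficiency. Of the 245 distinct named genes called in footprints, 160 stayed called in all alternatives run and 85 did not in at least 1. The shallowest footprint library held 1662705 counts, and with all thinned to that total 2058 genes were called.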
